A study of Mus musculus with 9 samples.

Results

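Cholesterol synthesis and uptake genes were described as a set of 27 genes, chosen by name as enzymes of the mevalonate and sterol pathways, genes of sterol uptake, storage and transport, and genes of SREBP2 control. All 27 were present among the 21959 genes of the deposited expression table and all 27 passed the filter on low values, as did 10537 genes in total. The RNA came from mouse bone marrow mesenchymal stromal cells, adherent cells known for secreting immunomodulatory factors, of a line marked SV40 in the labels. For the TNBS PF group, cultures received for 24 h the peritoneal fluid (PF) from mice treated over 3 days with TNBS, a hapten that induces colitis. Cells of the control PF group received fluid of control mice for the same time, and those of the PBS group phosphate-buffered saline. Each group had 3 libraries, and the culture medium held 10% serum. The labels do not say whether libraries within a group stem from different cultures or different fluid donors, and every p-value therefore reflects only how far these samples spread, possibly for technical reasons.

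Cells make cholesterol from acetyl-CoA. Mevalonate is built first and turned into prenyl units, these are joined to squalene, and squalene is closed to lanosterol, which is trimmed to cholesterol. The transcription factor SREBP2 controls most of these enzymes. It stays in the endoplasmic reticulum while sterols are plentiful, where INSIG proteins hold its escort SCAP, and it is released to the nucleus when sterols run low. SREBP2 binds sterol response elements, usually beside sites of the CCAAT-binding factor NF-Y, in the promoters of its target genes. In stromal cells, as in other dividing cells, the pathway supplies membrane sterol and the prenyl groups that anchor small GTPases.

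Promoter sequence was taken from the RefSeq table of build GRCm38.p6, which held 22 of the 27 genes. The 250 bases before the start are printed for 5 of the 6 genes with the largest fall in TNBS PF against control PF, and for Ggps1, which did not pass the test in any comparison. All are written 5′ to 3′ on the strand of the gene. Capitals mark matches, on either strand, to CCAAT, the NF-Y site, or to TCACNCCAC, a form of the sterol response element.
Hmgcs1 (chr13:119690101-119690350, plus strand): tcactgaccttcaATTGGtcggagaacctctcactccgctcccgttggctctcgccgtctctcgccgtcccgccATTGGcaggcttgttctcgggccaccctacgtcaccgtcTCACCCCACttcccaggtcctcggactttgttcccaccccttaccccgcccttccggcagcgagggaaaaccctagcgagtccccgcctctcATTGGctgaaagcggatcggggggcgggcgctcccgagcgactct
Insig1 (chr5:28071162-28071411, plus strand): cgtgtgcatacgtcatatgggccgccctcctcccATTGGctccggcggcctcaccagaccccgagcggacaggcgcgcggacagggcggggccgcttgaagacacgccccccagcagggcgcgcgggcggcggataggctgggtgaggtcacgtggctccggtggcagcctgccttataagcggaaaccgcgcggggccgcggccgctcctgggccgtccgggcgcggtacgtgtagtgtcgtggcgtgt
Idi1 (chr13:8885356-8885605, plus strand): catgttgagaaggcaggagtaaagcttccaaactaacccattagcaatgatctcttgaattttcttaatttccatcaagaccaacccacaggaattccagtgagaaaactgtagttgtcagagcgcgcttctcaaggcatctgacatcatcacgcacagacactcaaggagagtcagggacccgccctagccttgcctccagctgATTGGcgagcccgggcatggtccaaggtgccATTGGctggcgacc
Mvd (chr8:122443423-122443672, minus strand): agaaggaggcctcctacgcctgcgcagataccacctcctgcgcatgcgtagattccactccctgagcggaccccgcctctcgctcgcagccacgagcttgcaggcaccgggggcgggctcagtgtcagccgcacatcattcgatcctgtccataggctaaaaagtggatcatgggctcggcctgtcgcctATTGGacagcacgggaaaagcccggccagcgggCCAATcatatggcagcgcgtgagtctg
Acat2 (chr17:12960726-12960975, minus strand): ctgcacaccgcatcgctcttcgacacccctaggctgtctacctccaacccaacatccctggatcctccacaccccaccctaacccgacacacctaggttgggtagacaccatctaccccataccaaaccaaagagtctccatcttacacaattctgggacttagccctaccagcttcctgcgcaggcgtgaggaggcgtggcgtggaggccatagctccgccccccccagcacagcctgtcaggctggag
Ggps1 (chr13:14063489-14063738, minus strand): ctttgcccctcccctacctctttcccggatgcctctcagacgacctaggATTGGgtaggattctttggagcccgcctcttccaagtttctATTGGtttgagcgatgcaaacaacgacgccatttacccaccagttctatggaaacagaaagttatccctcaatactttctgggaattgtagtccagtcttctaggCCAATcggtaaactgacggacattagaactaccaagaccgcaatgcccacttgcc

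The Hmgcs1 window held the sterol response element together with 3 CCAAT matches. The windows of Mvd and Idi1 each held 2 CCAAT matches, that of Insig1 held 1 and that of Acat2 held 0, whereas Ggps1 held 3. Over the 22 genes, 20 had a CCAAT match in at least 1 annotated promoter (90.9%), against 41.5% of the 8449 tested genes with a promoter in the table. Of the 28 promoter windows of these 22 genes, 71.4% held it, against 36% of the 10793 windows of tested genes and 33.9% of all 32851 windows of this length. The response element matched in 1 of the 22 genes (4.55%), against 1.22% of tested genes. By window it matched in 3.57% of the 28, against 0.991% of windows of tested genes and 1.05% of all windows. Only exact matches to TCACNCCAC were counted, so windows without a match may still hold other forms of the response element. The GC box GGGCGG matched in 19 of the 22 genes (86.4%), against 67.1% of tested genes. By window the GC box matched in 75% of the 28, against 60.1% of windows of tested genes and 32.7% of all windows. All 3 motifs were searched on both strands, and none contains another. A CCAAT match stood before 13 of 14 genes that fell in TNBS PF against control PF and before 7 of 8 that did not pass, with Acat2 and Scap the genes without a match.

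**Figure D1:**
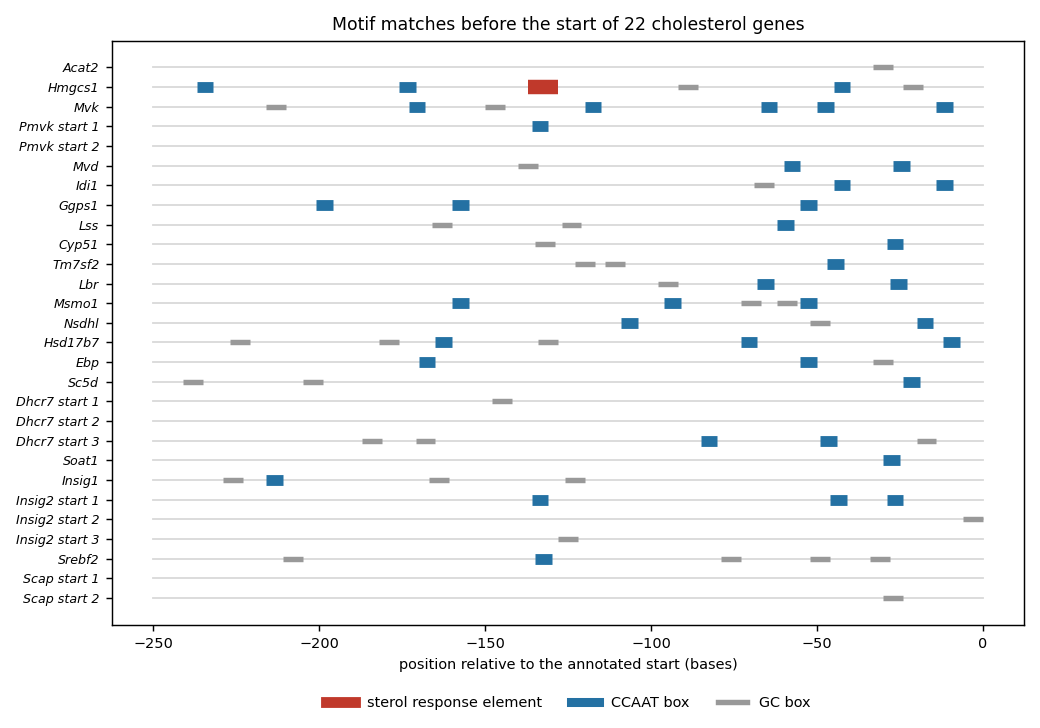
Matches to the sterol response element (red), the CCAAT box (blue) and the GC box (grey) in the 250 bases before each annotated start of 22 cholesterol genes, with the position in bases on the horizontal axis and genes in pathway order. The searched form of the response element appears before Hmgcs1, and CCAAT boxes appear before 20 of the 22 genes.

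Expression was given by the authors as FPKM, fragment numbers divided by gene length and by library depth. The length behind these values matched all annotated exons of a gene merged, so levels of different genes can be compared only roughly. The depth recovered from the values, rounded, was 22900000 to 25600000 assigned fragments in TNBS PF libraries, 18600000 to 21500000 in control PF libraries and 17900000 to 20300000 in PBS libraries, higher in every TNBS PF library than in the other 6. A single library held between 82 fragments (Tm7sf2) and 10950 fragments (Cyp51) of these genes. All 11 stromal markers averaged at least 1 FPKM, and their summed level was 1262 to 1280 FPKM with TNBS PF, 1304 to 1319 FPKM with control PF and 1316 to 1348 FPKM with PBS. Of these 11 markers, 2 rose and 4 fell in TNBS PF against control PF, and likewise 2 and 4 in TNBS PF against PBS. Among all tested genes, 10.6% and 16.7% were called in either direction in these comparisons. The largest called changes against control PF were falls of Pdgfrb (log2 fold change −0.39), Pdgfra (−0.38) and Ly6a (−0.32). The B cell marker Ms4a1, the T cell markers Cd3d and Cd3g and the macrophage markers C1qa and C1qb were at 0 in all 9 libraries. Macrophage and monocyte markers, carried by Cd14, summed to 16.3 to 18.2 FPKM with TNBS PF, 15.3 to 17.3 FPKM with control PF and 14.4 to 15.8 FPKM with PBS. Of these 9 markers 2 were tested, and Cd14 rose in TNBS PF against PBS (log2 fold change 0.19, limma adjusted p = 0.03). In TNBS PF against control PF and in control PF against PBS 0 passed. The sums of neutrophil, B cell, T cell and erythroid markers stayed at or under 0.282 FPKM in every library. Mesothelial markers, carried by Msln, summed to 47.7 to 52.3 FPKM with TNBS PF, above 40.3 to 41.6 FPKM with control PF and 42.4 to 44.5 FPKM with PBS. Of these 8 markers 5 averaged under 1 FPKM, and the 3 that were tested, Krt19, Krt18 and Msln, rose in both comparisons of TNBS PF. The part of the mesothelial markers in the results that follow was not tested.

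The stromal cells expressed the whole route to cholesterol. In PBS the highest level was that of Cyp51, the lanosterol demethylase, at 108.7 ± 3.92 FPKM (SD, n = 3), followed by Hmgcs1, the cytosolic HMG-CoA synthase, at 99.7 ± 1.72 FPKM. Their libraries did not overlap, and the next 2 genes, Insig1 (79.5 ± 2.47 FPKM) and Acat2 (70.7 ± 2.45 FPKM), did not overlap each other or Hmgcs1. The libraries of Msmo1 (69.3 ± 1.97 FPKM) and Idi1 (66.5 ± 4.27 FPKM) overlapped those of Acat2. The median of the 27 genes in PBS was 31.8 FPKM. Either of 2 reductases can act on the double bond that Cyp51 leaves, and their levels differed widely. Lbr, which is also the lamin B receptor of the inner nuclear membrane, stood at 28.0 ± 0.583 FPKM in PBS, whereas Tm7sf2 stood at 1.07 ± 0.0264 FPKM, the lowest level of the set. The level of Lbr was 26.2 to 32.1 times that of Tm7sf2 with TNBS PF, 22.96 to 23.4 times with control PF and 25.4 to 27.2 times with PBS. Tm7sf2 shares 12.1% of its exonic bases with Vps51 on the same strand, so reads there could be split. Among the control genes, the SREBP2 gene Srebf2 stood at 54.6 ± 0.764 FPKM and its escort gene Scap at 5.21 ± 0.268 FPKM in PBS.

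**Figure D2:**
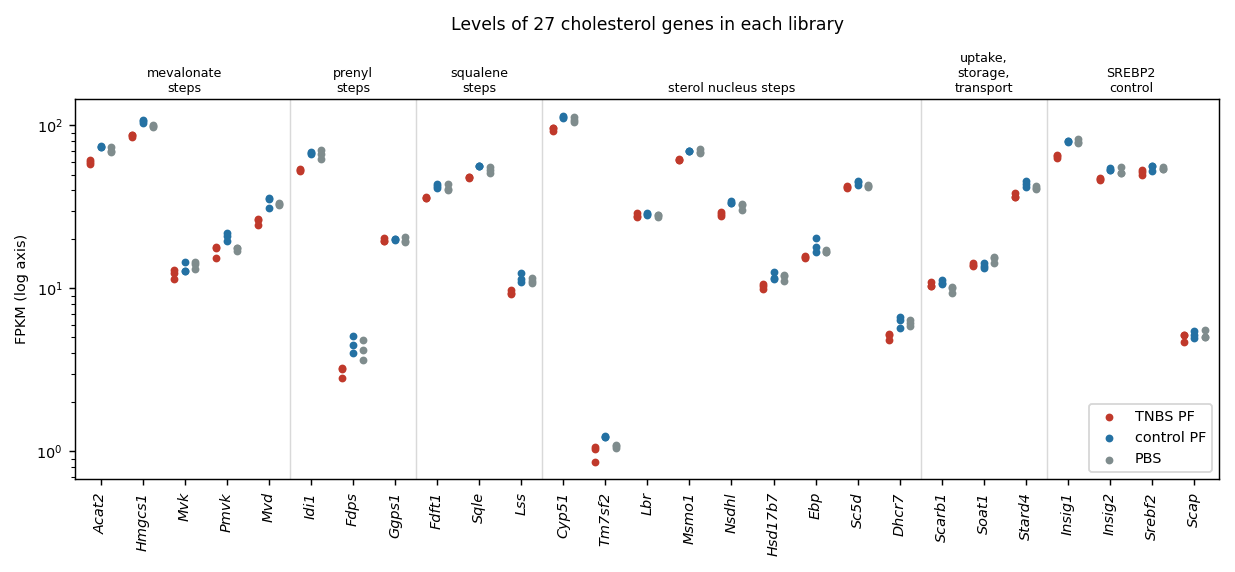
FPKM of each of the 27 genes in each library on a log axis, ordered by pathway step, with 1 point per library (red TNBS PF, blue control PF, grey PBS). Cyp51 and Hmgcs1 lie at the top, near 100 FPKM, and Tm7sf2 lies at the bottom, near 1 FPKM.

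Summed over the 27 genes, the level was 889, 893 and 887 FPKM in TNBS PF libraries 1 to 3, against 1032, 1039 and 1051 FPKM in control PF and 988, 1016 and 1015 FPKM in PBS. Each TNBS PF library lay below all 6 others, and each control PF library lay above all PBS libraries. The sum averaged 889 ± 3.08 FPKM with TNBS PF, 1040.5 ± 9.56 FPKM with control PF and 1006 ± 16.1 FPKM with PBS (SD, n = 3 each). Its share of all FPKM was 0.327% with TNBS PF, 0.385% with control PF and 0.376% with PBS. No test was run on the sum.

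The first comparison, TNBS PF against control PF, asks how cells given fluid of colitis mice differed from cells given fluid of control mice. Of the 27 genes, 18 fell and 0 rose at an adjusted p under 0.05 (limma on log2(FPKM + 1), Benjamini-Hochberg over all tested genes). At an unadjusted p under 0.05, 21 were lower and 0 higher, and limma voom on recovered fragments called 19 lower and 0 higher. The falls ran through every stage, with 4 of 5 mevalonate genes, 2 of 3 prenyl genes, all 3 squalene genes, 6 of 9 sterol nucleus genes, Stard4 among 3 genes of uptake, storage and transport, and both Insig genes among 4 of SREBP2 control. In the set 66.7% were called lower and 0% higher, against 5.45% lower, 5.15% higher and 10.6% in either direction among all tested genes. The fold change was below 0 for 26 of the 27 genes, against 55.7% of all tested genes. The median log2 fold change was −0.22 in the set and −0.01 over all tested genes. The 3 TNBS PF libraries lay below all 3 control PF libraries for 20 of the 27 genes (74.1%) and above them for 0, against 18.2% and 13.6% of all tested genes (31.8% in either direction). Among called genes, mean FPKM of Fdps fell by 32.2%, the most, and that of Msmo1 fell by 11.3%, the least. In bulk samples, fewer cells expressing a gene and less RNA per cell cannot be told apart.

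Of the 5 mevalonate genes, 4 fell. Acat2, the cytosolic thiolase that joins acetyl-CoA units, had 59.9, 61.5 and 58.1 FPKM in TNBS PF, against 74.0, 73.6 and 74.8 FPKM in control PF. All TNBS PF values were low and the groups were far from overlapping. On the log2(FPKM + 1) scale, used for every fold change here, Acat2 fell by 0.31 (SE 0.0325, adjusted p = 0.000104). Hmgcs1 had 87.6, 87.8 and 85.2 FPKM in TNBS PF, against 107.6, 104.1 and 106.9 FPKM in control PF, and fell by 0.29 (SE 0.0278, adjusted p = 5.61e-05). Its 3 TNBS PF values were close together and below each control PF value. Mvd, the mevalonate diphosphate decarboxylase, had 24.6, 26.4 and 26.8 FPKM in TNBS PF, against 31.1, 35.3 and 36.1 FPKM in control PF. It fell by 0.38 (SE 0.0503, adjusted p = 0.000434), with the wider spread in control PF. Pmvk, the phosphomevalonate kinase, fell by 0.28 (adjusted p = 0.00719). Mvk, the mevalonate kinase, did not pass, with a log2 fold change of −0.11 (95% interval −0.24 to 0.02) and groups that overlapped.

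The prenyl genes split. Idi1, the isopentenyl diphosphate isomerase, had 54.0, 53.5 and 52.7 FPKM in TNBS PF, against 69.1, 67.5 and 66.6 FPKM in control PF. The groups did not overlap, and Idi1 fell by 0.34 (SE 0.04, adjusted p = 0.000217). Fdps, the farnesyl diphosphate synthase, had 3.200, 2.80 and 3.24 FPKM in TNBS PF, against 4.04, 4.47 and 5.11 FPKM in control PF, and fell by 0.44 (SE 0.0889, adjusted p = 0.00723). Its level is uncertain, since 26.7% of its exonic bases are shared with Gm43738 on the same strand, which the table lists at 0 in all libraries. Ggps1, which makes geranylgeranyl diphosphate, the prenyl group outside the sterol route, had 19.5, 19.6 and 20.4 FPKM in TNBS PF, against 19.8, 20.04 and 20.2 FPKM in control PF. These groups overlapped, with a log2 fold change of −0.01 (95% interval −0.09 to 0.07).

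All 3 squalene genes fell, by similar amounts. Fdft1, the squalene synthase, averaged 36.1 ± 0.117 FPKM in TNBS PF and 42.3 ± 1.150 FPKM in control PF (log2 fold change −0.22, adjusted p = 0.00189). Its exons share 774 bases with Ctsb on the opposite strand, whose own log2 fold change was −0.11, with an adjusted p of 0.0277. Sqle, the squalene epoxidase, averaged 48.1 ± 0.187 FPKM in TNBS PF and 56.2 ± 0.155 FPKM in control PF (−0.22, adjusted p = 0.000984). Lss, the lanosterol synthase that closes the ring system, averaged 9.44 ± 0.251 FPKM in TNBS PF and 11.6 ± 0.816 FPKM in control PF (−0.27, adjusted p = 0.0045). In each of the 3 genes the groups did not overlap.

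Of the 9 sterol nucleus genes, Cyp51 fell by 0.24 (adjusted p = 0.000552), with 95.4 ± 2.58 FPKM in TNBS PF and 112.7 ± 1.70 FPKM in control PF. The next enzymes remove methyl groups, and Msmo1 fell by 0.17 (adjusted p = 0.00238), Nsdhl by 0.23 (adjusted p = 0.00154) and Hsd17b7 by 0.19 (adjusted p = 0.0265). The isomerase gene Ebp fell by 0.21 (adjusted p = 0.0272), and Dhcr7, a reductase of the last steps, fell by 0.25 (adjusted p = 0.0175). The sterol desaturase gene Sc5d had a log2 fold change of −0.09 and did not pass (adjusted p = 0.0691), although its groups did not overlap. Both reductases that act after Cyp51 missed the threshold. Lbr had 27.6, 27.9 and 28.8 FPKM in TNBS PF, against 28.1, 28.4 and 28.9 FPKM in control PF, and these overlapped (log2 fold change −0.02, 95% interval −0.09 to 0.05). Tm7sf2 had 0.859, 1.06 and 1.04 FPKM in TNBS PF, against 1.23, 1.23 and 1.23 FPKM in control PF, with no overlap but a log2 fold change of −0.17 and an adjusted p of 0.138 at its low level.

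Of these calls, 3 depended on single libraries. Hsd17b7 was not called without TNBS PF 1 (adjusted p = 0.072), TNBS PF 2 (0.106), control PF 1 (0.0932) or control PF 3 (0.0559). Ebp was not called without TNBS PF 1 (0.076), TNBS PF 2 (0.0616), TNBS PF 3 (0.0874), control PF 2 (0.052) or control PF 3 (0.0744), and without control PF 3 its log2 fold change was −0.14. Dhcr7 was not called without TNBS PF 3 (0.078), control PF 2 (0.0768) or control PF 3 (0.0648). All 3 genes also missed the threshold when no filter on low values was used (Hsd17b7 0.0588, Ebp 0.0833, Dhcr7 0.0512). The other 15 called genes stayed called under all 20 alternatives. When all libraries were thinned to the depth of the shallowest, 18 genes again fell.

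**Figure D3:**
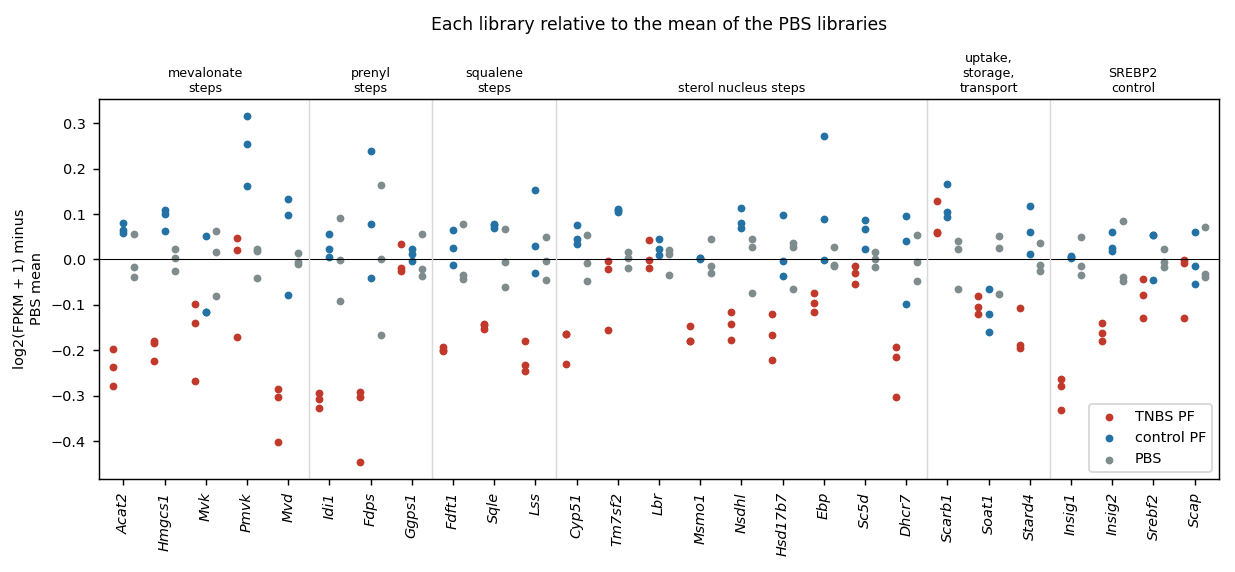
For each gene, log2(FPKM + 1) of every library minus the mean of the 3 PBS libraries, with 1 point per library (red TNBS PF, blue control PF, grey PBS). TNBS PF points lie lowest for most genes, while those of Ggps1, Lbr and Scap lie among the control PF and the PBS points.

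The genes of uptake, storage and transport differed from each other. Stard4, a sterol transfer protein gene, had 36.5, 38.7 and 36.3 FPKM in TNBS PF, against 42.1, 43.5 and 45.3 FPKM in control PF. The groups did not overlap and Stard4 fell by 0.23 (SE 0.0368, adjusted p = 0.00185). Scarb1, the receptor that takes cholesterol from high density lipoprotein, averaged 10.5 ± 0.326 FPKM in TNBS PF and 10.9 ± 0.331 FPKM in control PF, with overlap (log2 fold change −0.04, 95% interval −0.14 to 0.06). Soat1, which esterifies cholesterol for storage, averaged 14.0 ± 0.213 FPKM in TNBS PF and 13.9 ± 0.498 FPKM in control PF (0.01, 95% interval −0.08 to 0.11). Soat1 was the single gene of the 27 with a fold change above 0, and this sign turned without control PF 3 (−0.0099).

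Among the control genes, both INSIG genes fell and the SREBP2 and SCAP genes did not pass. Insig1 had 62.9, 66.1 and 65.3 FPKM in TNBS PF, against 79.8, 79.9 and 79.6 FPKM in control PF. The TNBS PF values lay far below the nearly equal control PF values, and Insig1 fell by 0.30 (SE 0.0308, adjusted p = 9.15e-05). Insig2 had 47.7, 46.4 and 46.97 FPKM in TNBS PF, against 55.0, 53.4 and 53.7 FPKM in control PF, and fell by 0.20 (SE 0.0365, adjusted p = 0.00447). The level of Insig1 was 1.38 ± 0.0539 times that of Insig2 with TNBS PF, 1.48 ± 0.0241 times with control PF and 1.51 ± 0.0368 times with PBS, a ratio chosen after its values were seen and not tested. Srebf2 averaged 51.5 ± 1.58 FPKM in TNBS PF and 55.4 ± 2.19 FPKM in control PF (log2 fold change −0.10, 95% interval −0.18 to −0.03, adjusted p = 0.0775). It passed without control PF 1 (adjusted p = 0.0326) and with limma voom on recovered fragments (0.0478). Scap averaged 5.02 ± 0.299 FPKM in TNBS PF and 5.20 ± 0.249 FPKM in control PF (−0.04, 95% interval −0.17 to 0.08).

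**Figure D4:**
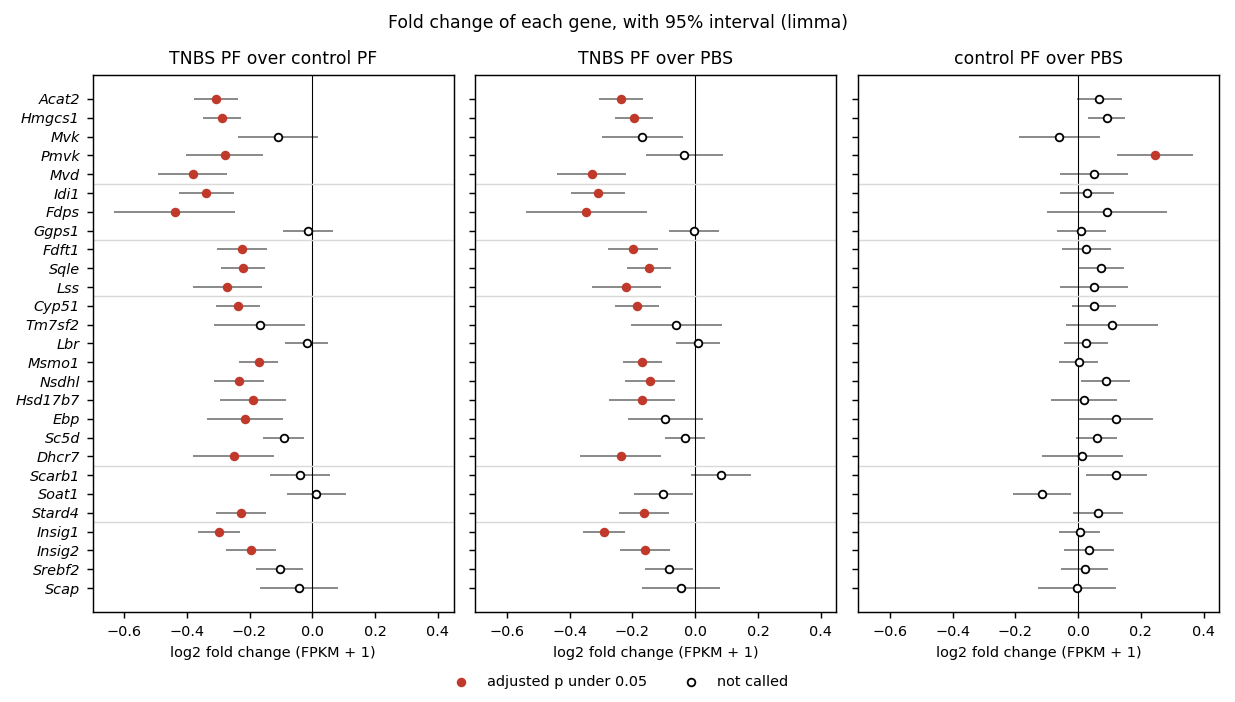
Log2 fold change on the FPKM + 1 scale with its 95% interval for each gene in the 3 comparisons, filled where the adjusted p was under 0.05. In TNBS PF over control PF 18 genes are filled, in TNBS PF over PBS 16 are filled, all below 0, and in control PF over PBS Pmvk is filled, above 0.

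The second comparison, TNBS PF against PBS, asks how fluid of colitis mice compared with saline, and it shares its TNBS PF libraries with the first. Of the 27 genes, 16 fell and 0 rose (59.3% lower), against 8.88% of all tested genes called lower, 7.8% higher and 16.7% in either direction. At an unadjusted p under 0.05, 19 were lower and 0 higher, and voom called 16 lower and 0 higher. Over all tested genes, 822 were called higher and 936 lower, and 624 and 1153 under TPM scaling. The median log2 fold change was −0.16 in the set and −0.01 over all tested genes. The groups did not overlap for 21 genes, 20 of them lower in TNBS PF (74.1%, against 19.7% of all tested genes) and 1 higher (against 15.5%, and 35.3% in either direction). The fold change was below 0 for 25 of the 27 genes, against 53.9% of all tested genes. The 6 largest called changes were Fdps (−0.35, SE 0.0889, adjusted p = 0.0179), Mvd (−0.33, SE 0.0503, adjusted p = 0.000773), Idi1 (−0.31, SE 0.04, adjusted p = 0.000247), Insig1 (−0.29, SE 0.0308, adjusted p = 5.08e-05), Acat2 (−0.24, SE 0.0325, adjusted p = 0.000378) and Dhcr7 (−0.24, SE 0.0595, adjusted p = 0.0161).

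Each of these 6 genes was lower in every TNBS PF library than in every PBS library. Mvd had 24.6, 26.4 and 26.8 FPKM in TNBS PF, against 32.6, 32.8 and 33.2 FPKM in PBS, which lay close together. Insig1 had 62.9, 66.1 and 65.3 FPKM in TNBS PF, against 77.6, 82.3 and 78.7 FPKM in PBS. Idi1 varied more in PBS, with 54.0, 53.5 and 52.7 FPKM in TNBS PF, against 62.3, 70.8 and 66.3 FPKM in PBS. Acat2 had 69.8, 68.8 and 73.5 FPKM in PBS, above each of its TNBS PF values. Dhcr7 had 5.25, 5.16 and 4.80 FPKM in TNBS PF, against 6.42, 5.92 and 6.12 FPKM in PBS, and Fdps had 3.200, 2.80 and 3.24 FPKM in TNBS PF, against 4.19, 3.62 and 4.81 FPKM in PBS. These last 2 genes have the lowest levels of the 6, with 274 to 463 fragments per library for Fdps.

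By role, 3 of 5 mevalonate genes, 2 of 3 prenyl genes, all 3 squalene genes, 5 of 9 sterol nucleus genes, Stard4 and both Insig genes fell. Pmvk was at 17.0 ± 1.45 FPKM in TNBS PF and 17.4 ± 0.445 FPKM in PBS, with overlap (log2 fold change −0.03, 95% interval −0.16 to 0.09), and its sign turned without TNBS PF 1 (0.03). Ebp did not pass (−0.10, adjusted p = 0.27), while Hmgcs1 (−0.20, adjusted p = 0.000495), Fdft1 (−0.20, adjusted p = 0.00289), Cyp51 (−0.19, adjusted p = 0.00205) and Msmo1 (−0.17, adjusted p = 0.00179) fell. Ggps1 (−0.0034, 95% interval −0.08 to 0.08), Lbr (0.0076, 95% interval −0.06 to 0.08) and Scap (−0.05, 95% interval −0.17 to 0.08) had groups that overlapped, and the signs of Ggps1 and Lbr turned under other scalings. Scarb1 lay higher in each TNBS PF library than in each PBS library, with 10.9, 10.4 and 10.4 FPKM in TNBS PF, against 10.1, 10.2 and 9.42 FPKM in PBS, but did not pass (0.08, adjusted p = 0.235).

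In this comparison 4 calls depended on single libraries. Hsd17b7 (−0.17, adjusted p = 0.031) was not called without TNBS PF 1 (0.0779), TNBS PF 2 (0.117), PBS 2 (0.0788) or PBS 3 (0.0941). Fdps was not called without TNBS PF 2 (0.0741) or PBS 3 (0.0718). Nsdhl (−0.14, adjusted p = 0.0171) was not called without TNBS PF 3 (0.0716) or PBS 1 (0.0631), and Dhcr7 was not called without TNBS PF 3 (0.0703) or PBS 1 (0.0596). Hsd17b7 and Fdps also missed the threshold without a filter (0.0607 and 0.0694). The other 12 called genes stayed called under all 20 alternatives.

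The third comparison, control PF against PBS, asks how fluid of control mice compared with saline, and it shares libraries with both others. Pmvk was the single gene called, with 19.6, 20.97 and 21.9 FPKM in control PF, against 16.9, 17.7 and 17.6 FPKM in PBS. The groups did not overlap, and Pmvk rose by 0.24 (SE 0.0565, adjusted p = 0.0406). Its call was lost without control PF 2 (adjusted p = 0.113), control PF 3 (0.144), PBS 1 (0.117), PBS 2 (0.0531) or PBS 3 (0.0981). In the set 3.7% were called higher and 0% lower, against 1.02% and 1.14% of all tested genes (2.15% in either direction). At an unadjusted p under 0.05, 5 were higher and 1 lower, and voom called 1 higher and 0 lower. The fold changes of 24 of the 27 genes were above 0, with a median of 0.05, against 0.00095 over all tested genes, of which 49.5% were below 0. For 8 genes, all 3 control PF values lay above all 3 PBS values, and for 0 genes below, against 9.33% of all tested genes above and 9.32% below (18.6% in either direction).

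Hmgcs1 was among those 8, with 107.6, 104.1 and 106.9 FPKM in control PF, against 97.8, 101.2 and 99.9 FPKM in PBS, and did not pass (log2 fold change 0.09, adjusted p = 0.121). Scarb1, with 10.6, 11.2 and 10.7 FPKM in control PF, against 10.1, 10.2 and 9.42 FPKM in PBS, did not pass either (0.12, adjusted p = 0.203). Insig1, in contrast to its values in TNBS PF, averaged 79.8 ± 0.124 FPKM in control PF and 79.5 ± 2.47 FPKM in PBS, with overlap and a 95% interval of −0.06 to 0.07. Soat1 was the gene with the lowest fold change (−0.11, adjusted p = 0.213), at 13.9 ± 0.498 FPKM in control PF and 15.1 ± 0.746 FPKM in PBS.

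**Figure D5:**
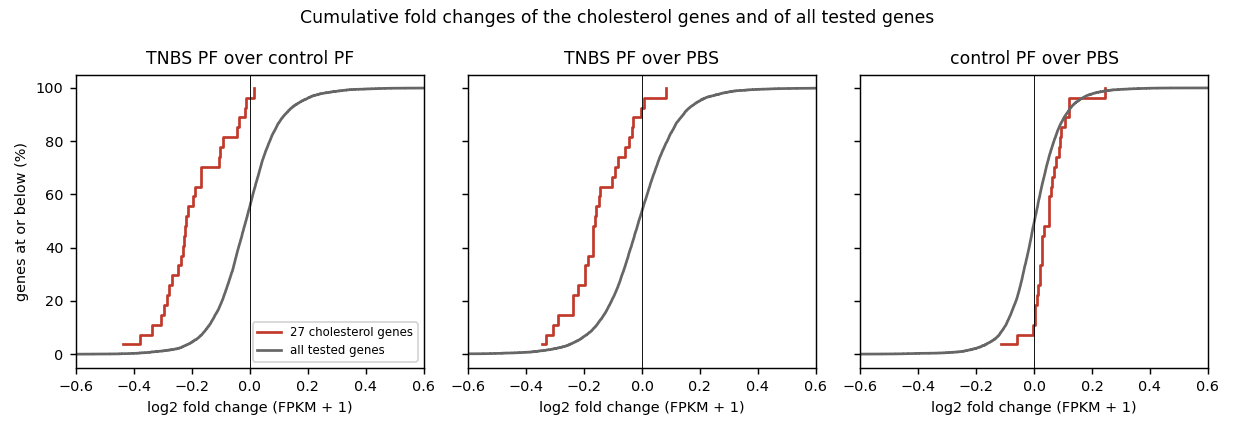
Cumulative share of genes at or below each log2 fold change (FPKM + 1 scale), for the 27 cholesterol genes (red) and all tested genes (grey), in the 3 comparisons. The red curve lies left of the grey one in both comparisons of TNBS PF, with medians of −0.22 and −0.16 in the set, and mostly right of it in control PF over PBS, with a median of 0.05.

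Genes next to the pathway were counted from lists made beside the 27 genes, in TNBS PF against control PF unless stated. Among all tested genes, 5.45% were called lower and 5.15% higher in TNBS PF against control PF. The shares were 8.88% and 7.8% in TNBS PF against PBS, and 1.14% and 1.02% in control PF against PBS. All counts here and in the following paragraphs come from short lists that were not tested as sets. Of 14 tested genes of SREBP1 and fatty acid synthesis, which share this control system through SREBP1, 9 fell and 0 rose. Acsl3, an acyl-CoA synthetase gene, averaged 25.3 FPKM in TNBS PF and 32.3 FPKM in control PF (−0.34, adjusted p = 0.000218), and Fasn, the fatty acid synthase, averaged 22.9 FPKM in TNBS PF and 28.1 FPKM in control PF (−0.28, adjusted p = 0.00936). Acss2 fell by 0.27 (adjusted p = 0.0323). Against PBS, 5 of the 14 fell and 1 rose, namely Mid1ip1 (0.28, adjusted p = 0.00366), which also rose in control PF against PBS (0.24, adjusted p = 0.0374), the single call of the 14 there.

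Of 11 genes of SREBP cleavage and sterol sensing, 2 fell and 0 rose. These were Mbtps1, which encodes the first protease that cuts SREBP (−0.12, adjusted p = 0.0372), and Rnf145, a sterol-responsive ubiquitin ligase gene (−0.15, adjusted p = 0.0254). In TNBS PF against PBS 0 of the 11 passed by limma, with 2 higher and 1 lower at an unadjusted p under 0.05, 2 higher with voom, and Erlin1 the gene of smallest p (0.14, adjusted p = 0.0542). In control PF against PBS 0 passed by limma or voom, with 1 higher and 1 lower at an unadjusted p under 0.05. The 15 genes that use prenyl groups outside the sterol route had 0 calls by limma or voom, with 1 higher and 1 lower at an unadjusted p under 0.05. In TNBS PF against PBS 2 of them rose, namely Coq2 of ubiquinone synthesis (0.18, adjusted p = 0.00289) and Nus1 of dolichol synthesis (0.11, adjusted p = 0.0216). In that comparison 5 of the 15 were higher and 2 lower at an unadjusted p under 0.05, and voom called 3 higher and 1 lower.

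Of 15 genes of sterol transport, storage and hydrolysis, 3 fell and 0 rose, namely Osbpl1a (−0.22, adjusted p = 0.014), Lipa, the lysosomal acid lipase (−0.20, adjusted p = 0.00553), and Osbp (−0.10, adjusted p = 0.0452). Against PBS 4 fell, with Lipa (−0.24, adjusted p = 0.00114) and Osbpl1a (−0.23, adjusted p = 0.00862) first. Of 6 tested genes of sterol efflux and liver X receptors, 2 fell and 0 rose. Mylip, a ubiquitin ligase gene that liver X receptors induce, averaged 6.46 FPKM in TNBS PF and 8.51 FPKM in control PF (−0.35, adjusted p = 0.00211), and Srebf1 fell by 0.17 (adjusted p = 0.0331). Against PBS, Mylip fell (−0.31, adjusted p = 0.00305) and Arl4c rose (0.27, adjusted p = 0.00265).

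Exons of some of the 27 genes overlap another gene, and no label or header says whether the authors counted by strand. Beside Fdps, Fdft1 and Tm7sf2, Lbr shares 440 exonic bases with Dnah14, Ggps1 shares 257 with Arid4b and Cyp51 shares 166 with Akap9, each on the opposite strand. Dnah14 averaged 0.036 FPKM with TNBS PF, 0.016 FPKM with control PF and 0.027 FPKM with PBS, and Arid4b and Akap9 did not pass in any comparison. Acat2 has a close copy, Acat3, which averaged 1.26 FPKM with TNBS PF, 1.87 FPKM with control PF and 1.35 FPKM with PBS, far below Acat2. Hmgcs1, Idi1, Lss and Scap share 557, 323, 381 and 985 exonic bases, in that order, with annotated opposite-strand genes not analysed here. Of the 20 genes that share no exons with another gene in the table and have no such copy, these 4 included, 14 fell in TNBS PF against control PF and 12 in TNBS PF against PBS.

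The authors' deposited table gives p under 0.05 for 20 of the 27 genes in TNBS PF against control PF, for 18 in TNBS PF against PBS and for 4 in control PF against PBS. It marks 0 of the 27 as changed in any comparison, and its log2 fold changes for them run from −0.54 to 0.26.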

How the data were processed

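RNA was sequenced from 9 libraries in 3 groups of 3. The submitters' processing notes name cutadapt 1.15 for trimming, with mm10 as the build. Which aligner, counter and strand setting were used is not stated in the labels or headers. The deposited table holds, per the file headers, FPKM that the authors computed for 21959 genes. It also holds group means in FPKM and, for every pairing of groups, a log2 fold change and a p-value that the authors computed by an unstated test. These entered no test here.

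Exon lengths from GENCODE M21 were found for 21902 genes, and with them 97.2 to 97.3% of FPKM values under 1000 fragments came out as whole fragments within 0.01. The depth of each library was recovered from this. FPKM were transformed as log2(FPKM + 1), which understates changes of low genes. The 10537 genes that reached an FPKM of 1 in 3 or more libraries entered 1 linear model of the 3 groups in limma 3.58.1 (R 4.3.3) with a mean-variance trend. P-values were adjusted by Benjamini-Hochberg over all tested genes with a threshold of 0.05. Exact tests of 3 against 3 libraries cannot give a two-sided p under 0.1 and were not used. The fit was tested on simulated data. All 27 genes are named. The 6 largest called changes of a comparison are given in full, and up to 3 called genes of each neighbouring list, or the gene of smallest p, are named, except that some items are not reported here. Genes and lists were chosen with earlier results of these data known. Alternatives covered pseudocounts of 0.1 and 0.5, filters, scalings, 2 groups alone, the replicate number as a block, voom on recovered fragments with TMM factors, thinning to equal depth and leaving out each library. The labels do not say what libraries of the same number share, so the fit has no block.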

Additional observations from a re-analysis of the deposited data

How the results depend on the processing

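Counts of called genes of the set were 15 to 18 without single libraries in TNBS PF against control PF and 14 to 16 in TNBS PF against PBS, and 18 and 16 with the replicate number as a block. Without members whose exons overlap another gene in the table or that have a close copy (chosen after seeing the data, as was thinning to equal depth), 14 and 12 of 20 fell. In control PF against PBS the single call became 0 without a filter, under TPM scaling and after thinning, and was 0 to 1 without single libraries. Set medians without single libraries ran from −0.22 to −0.20, from −0.18 to −0.15 and from 0.037 to 0.069 in the 3 comparisons in the order above, and the median of TNBS PF against PBS was −0.19 under TPM scaling. Summed levels were 3273, 3847 and 3760.4 TPM in TNBS PF, control PF and PBS, and 895 FPKM in TNBS PF under median-ratio scaling. Over all genes, calls in control PF against PBS numbered 227, but 103 without a filter and 375 with voom. Without single libraries, calls ran from 661 to 1255, from 1148 to 1735 and from 115 to 311. Calls in TNBS PF against control PF numbered 691, 661 and 676 without TNBS PF 1, 2 and 3, and 733 and 708 without control PF 2 and 3. Those in TNBS PF against PBS numbered 1148 without TNBS PF 3. Those in control PF against PBS numbered 115, 130 and 124 without control PF 1, 2 and 3, and 142 without PBS 3. The cause of these changes was not tested.

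Signs turned only for genes that had not passed in that comparison. Under TPM scaling Lbr was at −0.014 in TNBS PF against PBS, and in control PF against PBS Ggps1 was at −0.0051, Msmo1 at −0.013, Insig1 at −0.011 and Dhcr7 at −0.00088. Under quantile normalization Srebf2 was at −0.0024 and Msmo1 at −0.00086 in control PF against PBS. Ggps1 was at 0.00046 against control PF and 0.0091 against PBS in TNBS PF under median-ratio scaling, and at 0.011 against PBS with voom. After thinning, Msmo1 was at −0.00042 and Scap at 0.0040 in control PF against PBS. Without single libraries, Soat1 ran from −0.0099 to 0.038 in TNBS PF against control PF. In TNBS PF against PBS, Lbr ran from −0.010 to 0.021, Ggps1 from −0.022 to 0.025 and Pmvk from −0.075 to 0.034. In control PF against PBS the ranges were −0.0078 to 0.038 for Ggps1, −0.020 to 0.047 for Hsd17b7, −0.013 to 0.025 for Msmo1, −0.034 to 0.033 for Scap, −4.1e-05 to 0.090 for Lss, −0.013 to 0.029 for Insig1, −0.017 to 0.074 for Idi1 and −0.029 to 0.069 for Dhcr7. Correlations of same-numbered libraries' deviations from their group means lay between −0.098 and 0.075. Those of differently numbered libraries lay between −0.075 and 0.078. With 3 libraries per group, these values cannot decide whether libraries of the same number were paired. With the replicate number as a block, all genes called numbered 906, 1537 and 169 in the 3 comparisons. Depth limits Tm7sf2 most, at 82 to 120 fragments per library.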
